A study of Homo sapiens with 6 samples.

Results

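The genes of the CDK inhibitors were followed in MV4-11 cells, an established human AML cell line, after inhibition of the WNK kinases. The group held 8 of the 20348 genes in the deposited table, taken by gene symbol: *CDKN1A*, *CDKN1B*, *CDKN1C*, *CDKN2A*, *CDKN2B*, *CDKN2C*, *CDKN2D* and *CDKN3*. The first 3 form the CIP/KIP family, the next 4 form the INK4 family, and *CDKN3* encodes a phosphatase that belongs to neither. RNA-seq was performed on 3 Control samples, labelled untreated and described as a blank control, and on 3 samples kept with 1 μM WNK463, a small molecule inhibitor of WNK kinases, for 48 h. All samples came from this single line, at a single dose and time point, and the sources used here name no vehicle in the Control samples. The labels do not say that replicates were separate cultures, so p-values measure the spread between these samples, which may be technical.

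CDK inhibitors restrain the kinases that drive cells through the division cycle. The CIP/KIP proteins p21, p27 and p57 bind cyclin-CDK complexes, above all those of CDK2, and also help cyclin D to assemble with CDK4 or CDK6. The INK4 proteins p16, p15, p18 and p19 bind CDK4 and CDK6 and keep cyclin D from activating them, which leaves RB able to hold E2F factors in check. p27 and p15 are known in myeloid cells for their links to cell cycle exit, and *CDKN2B* is often silenced by promoter methylation in AML.

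Total counts lay between 14915745 and 17411780 per sample. Expression is given as the normalized count, as CPM of the TMM-scaled library, and genes were tested with edgeR's quasi-likelihood test over 11973 genes with Benjamini-Hochberg adjustment. All 8 CDK inhibitor genes passed the filter on low counts, although *CDKN1C* passed it only through the WNK463 samples. Over all tested genes, the median log2 fold change was 0.02 with TMM scaling and 0.17 with scaling by total counts, so small changes depend on the scaling. The 12 myeloid markers of the line were all detected, and their summed level was 2270 to 2407 CPM in Control and 1427 to 1445 CPM with WNK463. The markers did not move together. *LYZ*, the lysozyme gene, went from 1355 to 290.9 CPM, *MPO* from 7.47 to 1.31 and *ANPEP* from 1.51 to 0.55 CPM. *CD33* and *FLT3* were also lower, with log2 fold changes of -0.38 and -0.205. In contrast, *PTPRC* went from 91.6 to 210.4, *CSF1R* from 58.6 to 114.4 and *ITGAM* from 5.67 to 13.5 CPM. *HOXA9* and *MEIS1* were also higher, with log2 fold changes of 0.72 and 0.33, and *SPI1* stayed at 0.002. Of the markers of other cell types, *CD3D*, *CD3G*, *MS4A1*, *HBB*, *ALAS2*, *EPCAM*, *KRT19*, *COL1A2* and *COL3A1* were at 0 counts in all 6 samples. The summed T and NK cell markers went from 9.94 to 13.6 CPM in Control to 15.8 to 16.6 CPM with WNK463, mostly *NKG7* (log2 fold change 0.46, edgeR adjusted p = 0.0015), and the summed epithelial markers were 18.9 to 20.7 and 18.5 to 19.3 CPM, with *KRT8* at 0.41 (edgeR adjusted p = 0.0042) and *KRT18* at -0.69 (edgeR adjusted p = 1.6e-04). These sums exceed the levels of *CDKN1C* and *CDKN2B* given below, and the part of these markers in the results was not tested.

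Most of the CDK inhibitor genes were higher in the WNK463 samples than in the Control samples. At an adjusted p below 0.05, 6 of the 8 genes were higher and 1 was lower, while among all tested genes 35.5% were higher and 35.3% were lower. Because calls were this frequent over all genes, a limit of 1 on the absolute log2 fold change was also applied, and 3 of the 8 genes then remained called higher against 9.62% of all tested genes. These were *CDKN1B*, *CDKN1C* and *CDKN2B*. Since *CDKN1C* was tested only through the group where it is high, the genes were also counted after requiring 10 reads or more in all samples. This leaves *CDKN1C* out. Of the other 7 genes, 5 were then higher, of which 2 passed the limit, and 1 was lower. With this requirement, 7976 of all 11150 tested genes were called in either direction, and 1252 of all tested genes were called with the limit. No gene of the group was called lower with this limit (0 of 8 by edgeR, against 5.55% of all tested genes), also at an unadjusted p below 0.05 (0 of 8) and with DESeq2 or limma (0 of 8 each). The 3 WNK463 values lay outside the range of the 3 Control values in 7 of the 8 genes, against 73.5% of all tested genes. *CDKN1C* is among these 7, and its separation is only a description because it was tested only through the WNK463 samples. The exact two-sided permutation test gave p = 0.10 for each of these 7 genes, which is the lowest that 3 samples against 3 allow. The median log2 fold change was 1.17 over the CIP/KIP genes and 0.37 over the INK4 genes, beside 0.02 over all tested genes. With 3 genes, the CIP/KIP median is the value of *CDKN1B*. It counts *CDKN1C*, tested only through the WNK463 samples. *CDKN1A* was also higher with WNK463, but its log2 fold change of 0.40 was below this median. In bulk RNA, a change in every cell and a change in the share of cells that express a gene cannot be told apart.

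**Figure D1:**
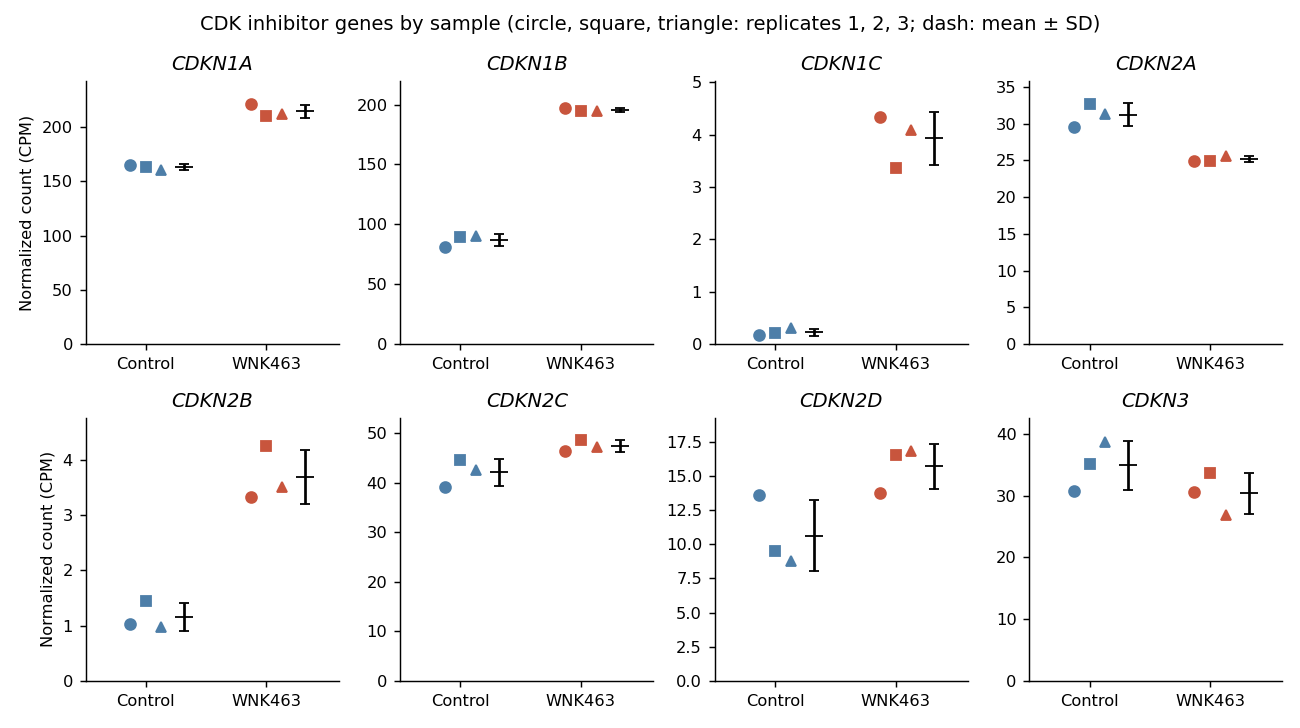
Normalized count (CPM, linear axis from 0) of each CDK inhibitor gene in the 3 Control and 3 WNK463 samples, with the mean and SD of each group (n = 3). The WNK463 samples lie above the Control samples for 6 genes and below them for *CDKN2A*, and the groups overlap for *CDKN3*.

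*CDKN1B* (ENSG00000111276), on the plus strand of chromosome 12 (GRCh38, 12715058 to 12722371), encodes p27, which binds and blocks cyclin E-CDK2 and cyclin A-CDK2. Its normalized count was 80.8, 89.2 and 90.1 CPM in the Control samples and 197.5, 194.3 and 194.5 CPM in the WNK463 samples. The groups lay far apart, and the WNK463 samples differed among themselves by little more than 3 CPM. The mean went from 86.7 ± 5.14 to 195.4 ± 1.83 CPM (SD, n = 3 each), which gave a log2 fold change of 1.17 (SE 0.05, edgeR adjusted p = 2.4e-12). Of the 8 genes it had the smallest p, and by p it ranked 155 among the 11973 tested genes. The value lay between 1.12 and 1.37 in every alternative processing.

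*CDKN1A* (ENSG00000124762), on the plus strand of chromosome 6 (36676460 to 36687339), encodes p21, which binds cyclin-CDK complexes and the replication clamp PCNA. Its normalized count was 165.5, 163.4 and 160.3 CPM in Control and 221.4, 210.0 and 211.9 CPM with WNK463. The groups did not overlap, but the distance between them was smaller than for *CDKN1B*. The log2 fold change was 0.40 (SE 0.05, edgeR adjusted p = 6.7e-07), a rise of 1.31-fold. Within each library the TPM ratio of *CDKN1B* to *CDKN1A*, which does not depend on the scaling of the library, was 0.406, 0.453 and 0.465 in Control and 0.742, 0.760 and 0.772 with WNK463. The ratio was thus higher in each WNK463 sample than in any Control sample (p = 0.10 by the exact permutation test, two-sided, the lowest that can be reached). An antisense transcript gene, *DINOL*, shares 146 exon bases with *CDKN1A*, and since the counting is not stated to use strand, its reads could not be told apart from those of *CDKN1A*.

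*CDKN1C* (ENSG00000129757), on the minus strand of chromosome 11 (2883213 to 2885773), encodes p57, the imprinted member of the family, which is known for a part in the quiescence of blood stem cells. Only 3, 3 and 5 reads were counted in the Control samples, against 72, 58 and 64 in the WNK463 samples. The gene was thus close to undetected without the inhibitor and present at a low level in each sample that received it. The normalized count went from 0.231 ± 0.065 to 3.94 ± 0.505 CPM (SD, n = 3 each), a fitted log2 fold change of 4.04 (SE 0.36), given as a description because the gene entered the test only through the WNK463 samples. With 11 reads in Control against 194 with WNK463, the ratio of summed normalized counts was 16.9, with a 95% interval from 9.25 to 34.4 that covers counting error only. The fitted value of a gene at this depth depends on how low counts are treated, and with limma on log2(TPM + 1) the log2 fold change was 2.21.

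Part of the RefSeq promoter windows (GRCh38.p14) of *CDKN1A*, *CDKN2B* and *CDKN3* is shown because these genes rose slightly, rose strongly and did not pass the test, respectively. Each run is given 5′ to 3′ in the direction of the gene, covers the stretch of the 250 bases before the RefSeq start that lies outside GENCODE 29 exons, and has matches to the GC box, CCAAT box and CHR letters in capitals.
CDKN1A promoter, chr6:36678464-36678657, plus strand: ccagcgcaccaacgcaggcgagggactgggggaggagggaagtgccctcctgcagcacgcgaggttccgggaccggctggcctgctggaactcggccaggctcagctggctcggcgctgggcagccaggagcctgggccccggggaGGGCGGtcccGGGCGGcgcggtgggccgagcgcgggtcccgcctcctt
CDKN2B promoter, chr9:22009364-22009555, minus strand: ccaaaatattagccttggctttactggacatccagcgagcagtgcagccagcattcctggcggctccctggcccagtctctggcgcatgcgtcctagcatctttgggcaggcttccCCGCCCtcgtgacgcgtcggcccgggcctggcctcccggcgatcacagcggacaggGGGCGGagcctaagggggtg
CDKN3 promoter, chr14:54396757-54396848, plus strand: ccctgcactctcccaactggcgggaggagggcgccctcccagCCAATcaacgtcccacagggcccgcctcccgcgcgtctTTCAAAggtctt

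The motifs were searched on both strands of the whole 250 bases, in 10 windows that belong to 7 of the 8 genes, while *CDKN1C* had no window. The GC box (GGGCGG), the letters read by SP1, was found in 7 of the 10 windows against 42.6% of all 35116 windows in the RefSeq table. All windows outside *CDKN2C* held at least 64.4% G and C, against a median of 58% over all windows. The part of this base content in the GC box share was not tested. It occurred 4 times before *CDKN1A*, of which 2 lie in the stretch shown, 2 times each before *CDKN2B* and *CDKN2D*, 1 time before *CDKN1B*, in 2 of the 3 windows of *CDKN2C* and 1 of the 2 windows of *CDKN2A*, and 0 times before *CDKN3*. The CCAAT box (CCAAT) was present in 4 windows, those of *CDKN1B*, *CDKN3*, *CDKN2D* and 1 of the 3 windows of *CDKN2C*, against 32% of all windows. The CHR element (TTTGAA), which is known from genes of the late cell cycle, was found before *CDKN3* alone, against 13.3% of all windows. The E2F letters (TTTCCCGC, TTTGGCGC, TTTCGCGC or TTTGCCGC) and the TATA box (TATAAA) matched in 0 of the 10 windows, against 2.79% and 10.7% of all windows. For letters this rare, 10 windows are too few to set these genes apart, and other forms of the sites were not searched. A match is a run of letters and not a measured binding site.

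*CDKN2B* (ENSG00000147883) encodes p15 and *CDKN2A* (ENSG00000147889) encodes p16 and, from another first exon and reading frame, the protein ARF. They are neighbours on the minus strand of chromosome 9, from 22002903 to 22009363 and from 21967753 to 21995301, with 7601 bases between them. *CDKN2B* had 17, 21 and 16 reads in Control and 55, 73 and 55 with WNK463, and each WNK463 sample lay above each Control sample. Its normalized count went from 1.15 ± 0.253 to 3.69 ± 0.487 CPM (SD, n = 3 each), which gave a log2 fold change of 1.69 (SE 0.27, edgeR adjusted p = 2.1e-05). Its level stayed low, and with limma on log2(TPM + 1) its log2 fold change was 0.97, below the limit of 1.

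*CDKN2A* went the other way. Its normalized count was 29.6, 32.6 and 31.3 CPM in Control and 24.9, 24.9 and 25.6 CPM with WNK463, so all WNK463 samples were below all Control samples. The log2 fold change was -0.31 (SE 0.08, edgeR adjusted p = 0.0013). This call was lost with scaling by total counts (log2 fold change -0.16, adjusted p = 0.068) and with limma on log2(TPM + 1) (-0.07, adjusted p = 0.33). The TPM ratio of *CDKN2B* to *CDKN2A* was 0.0075, 0.0098 and 0.0070 in Control and 0.0289, 0.0368 and 0.0284 with WNK463, a change that no scaling of the library alters (p = 0.10 by the exact permutation test, two-sided, the lowest that can be reached). Gene counts do not separate p16 from ARF, whose transcripts are among the 14 that GENCODE 29 lists for the gene. The antisense gene *CDKN2B-AS1* shares 341 exon bases with *CDKN2A* and 0 with *CDKN2B*, and its reads could have been counted with *CDKN2A*. *MTAP*, the enzyme gene next to *CDKN2A*, was also lower, from 82.1 ± 1.48 to 58.8 ± 1.70 CPM (SD, n = 3 each), with a log2 fold change of -0.48 (edgeR adjusted p = 4.3e-07).

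*CDKN2D* (ENSG00000129355), on the minus strand of chromosome 19 (10566462 to 10569059), encodes p19, the INK4 protein whose level is known to change over the cell cycle. Its normalized count was 13.6, 9.53 and 8.78 CPM in Control and 13.8, 16.5 and 16.8 CPM with WNK463. The highest Control sample and the lowest WNK463 sample almost touched, so the groups were separated by a narrow margin. The log2 fold change was 0.56 (SE 0.14, edgeR adjusted p = 0.0019), and it was 0.77 without Control replicate 1 and 0.42 without Control replicate 3. *CDKN2C* (ENSG00000123080), on the plus strand of chromosome 1 (50960745 to 50974633), encodes p18. Its normalized count was 39.1, 44.6 and 42.4 CPM in Control and 46.4, 48.7 and 47.2 CPM with WNK463, a log2 fold change of 0.17 (SE 0.07, edgeR adjusted p = 0.028). Each WNK463 sample lay above each Control sample. The call was lost without Control replicate 1 (adjusted p = 0.13), without Control replicate 3 (0.055), without WNK463 replicate 2 (0.089), without WNK463 replicate 3 (0.061), with DESeq2 (0.091) or without a filter on low counts (0.054). The log2 fold change was larger with scaling by total counts (0.33, edgeR adjusted p = 4.7e-04) and with limma on log2(TPM + 1) (0.46, adjusted p = 7.4e-04).

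*CDKN3* (ENSG00000100526), on the plus strand of chromosome 14 (54396849 to 54420218), encodes a phosphatase that removes the activating phosphate from CDK2, and its mRNA is known to rise late in the cell cycle. Its normalized count was 30.8, 35.2 and 38.7 CPM in Control and 30.6, 33.7 and 26.9 CPM with WNK463. The groups overlapped (exact two-sided permutation test, p = 0.20). The log2 fold change of -0.20 (SE 0.09) had an unadjusted p of 0.048 and did not pass after adjustment (edgeR adjusted p = 0.067). It passed without Control replicate 1 (-0.29, adjusted p = 0.0061), without WNK463 replicate 2 (-0.28, adjusted p = 0.025) and without a filter on low counts (-0.21, adjusted p = 0.03), while limma on log2(TPM + 1) gave -0.02 (adjusted p = 0.86).

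**Figure D2:**
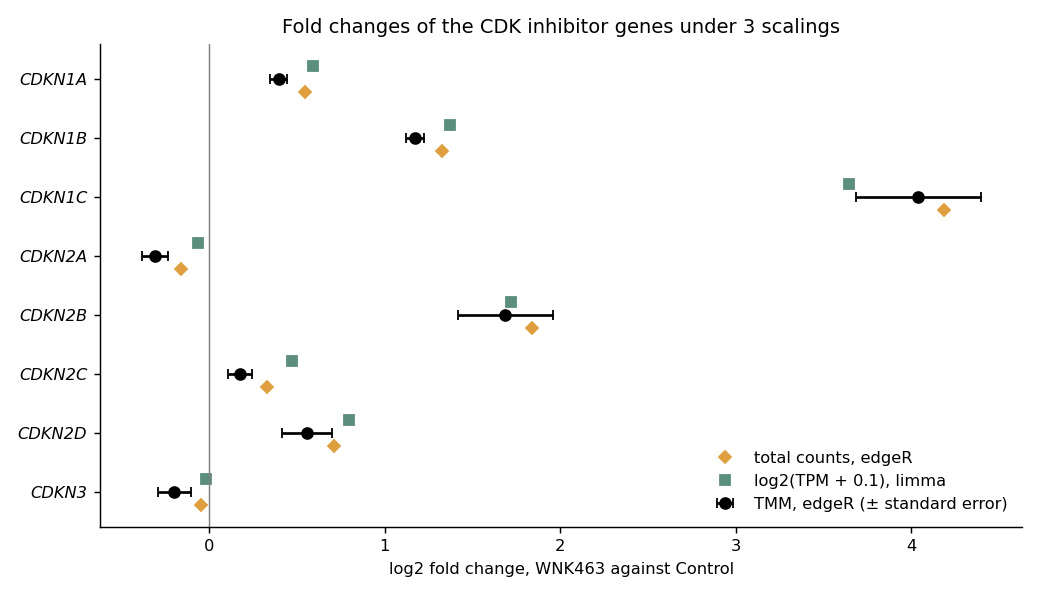
log2 fold change of each CDK inhibitor gene (WNK463 against Control) with TMM scaling and edgeR (circles, bars are standard errors), with scaling by total counts (diamonds) and with limma on log2(TPM + 0.1) (squares), from 3 samples per group. *CDKN1B*, *CDKN1C* and *CDKN2B* lie above 1 in all 3, while *CDKN2A* moves from -0.31 with TMM to -0.16 with total counts.

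Levels were compared between genes on the deposited TPM, which is per transcript length. *CDKN1A* was the most abundant of the 8 genes in both groups, with 143.0 ± 1.45 TPM in Control and 215.6 ± 5.85 TPM with WNK463 (SD, n = 3 each). In Control it was followed by *CDKN3* (80.6 TPM), *CDKN2A* (68.3), *CDKN1B* (63.1), *CDKN2C* (44.0), *CDKN2D* (16.8), *CDKN2B* (0.555) and *CDKN1C* (0.311), and the ranges of neighbours in this order did not overlap. Some margins were narrow. The lowest *CDKN3* value was 72.39 against a highest *CDKN2A* value of 71.76 TPM. The lowest *CDKN2A* value was 66.03 against a highest *CDKN1B* value of 65.75 TPM. With WNK463, *CDKN1B* moved from the fourth to the second place with 163.4 ± 1.52 TPM (SD, n = 3). *CDKN3* (79.6 TPM), *CDKN2A* (65.2) and *CDKN2C* (61.3) came next, and the ranges of *CDKN2A* and *CDKN2C* overlapped. *CDKN2D* (28.9 TPM), *CDKN1C* (5.09) and *CDKN2B* (2.04) were lowest, so *CDKN1C* passed *CDKN2B*.

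The summed TPM of the CIP/KIP genes was 202.1, 209.7 and 207.4 in Control and 392.8, 379.2 and 380.4 with WNK463. Within this sum the share of *CDKN1A* fell from 69.3 ± 1.54% to 56.1 ± 0.505%, while the share of *CDKN1B* went from 30.6 ± 1.53% to 42.6 ± 0.469% (SD, n = 3 each). *CDKN1C* contributed 0.151% in Control and 1.32% with WNK463, so the 16.9-fold change of this gene added little to the family's RNA. The summed TPM of the INK4 genes was 128.8, 132.3 and 128.0 in Control and 147.4, 166.0 and 158.9 with WNK463. Here the share of *CDKN2A* went from 52.6 ± 1.5% to 41.5 ± 2.48% and that of *CDKN2D* from 12.96 ± 3.02% to 18.3 ± 1.46% (SD, n = 3 each). The shares describe RNA, and protein was not measured in these files.

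**Figure D3:**
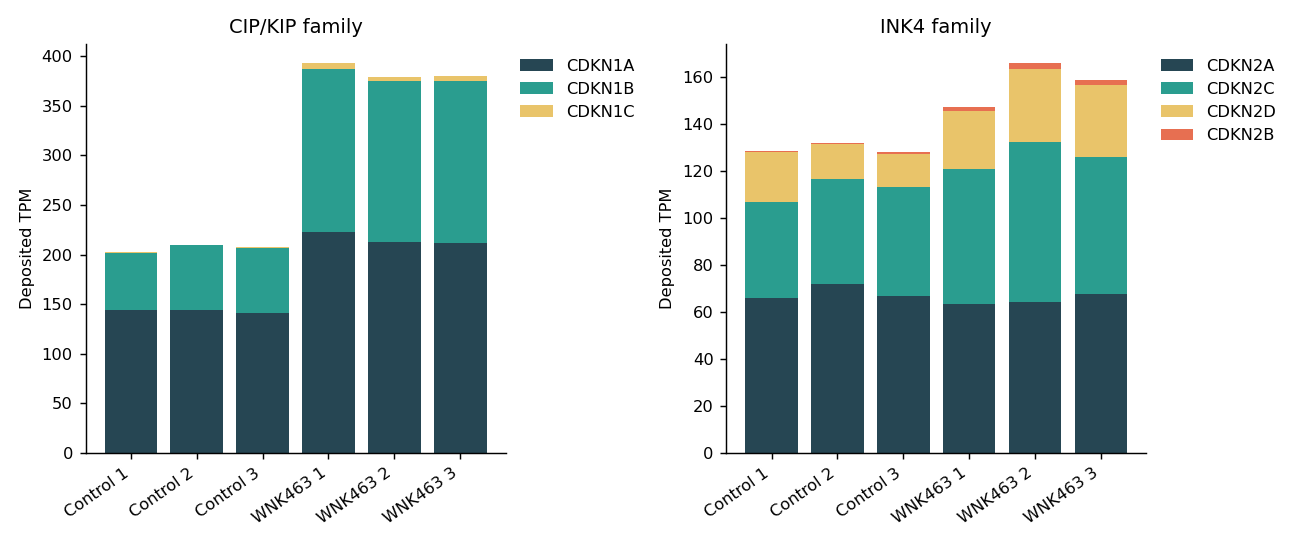
Deposited TPM of the CIP/KIP genes (left) and the INK4 genes (right), stacked for each of the 6 samples on axes that start at 0. The CIP/KIP sum is 202.1 to 209.7 in Control and 379.2 to 392.8 with WNK463, and the part from *CDKN1B* grows most.

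Of the kinases that these proteins bind, *CDK2*, the main partner of p21 and p27, had 68.2 ± 2.57 CPM in Control and 25.3 ± 0.694 CPM with WNK463 (SD, n = 3 each), which gave a log2 fold change of -1.43 (edgeR adjusted p = 2.5e-12). The TPM ratio of *CDKN1B* to *CDK2* was 0.989, 1.14 and 1.12 in Control and 7.18, 6.61 and 6.71 with WNK463. The ratio of *CDKN1A* to *CDK2* went from 2.45 ± 0.065 to 9.02 ± 0.566 (SD, n = 3 each), and both ratios were higher in each WNK463 sample than in any Control sample (p = 0.10 each by the exact permutation test, two-sided, the lowest that can be reached). *CDK4* and *CDK6*, the partners of the INK4 proteins, went opposite ways, with log2 fold changes of -0.95 (adjusted p = 7.4e-11) and 0.30 (edgeR adjusted p = 7.8e-05). The TPM ratio of *CDKN2C* to *CDK4* went from 0.186 ± 0.017 to 0.465 ± 0.086, whereas that to *CDK6* was 0.568 ± 0.018 and 0.561 ± 0.049 (SD, n = 3 each, exact two-sided permutation test, p = 0.80). The ratio of *CDKN2A* to *CDK4* went from 0.287 ± 0.020 to 0.492 ± 0.039, and that of *CDKN2A* to *CDK6* went down, from 0.883 ± 0.079 to 0.598 ± 0.027 (SD, n = 3 each, p = 0.10 for both by the exact permutation test).

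The counts of the pathway lists stand beside a background of 35.5% higher and 35.3% lower among the genes tested. Of the 13 cyclin and CDK genes that the inhibitors bind, 8 were lower and 3 higher at an adjusted p below 0.05, with a median log2 fold change of -0.31, and 4 were lower with limma on log2(TPM + 1). *CCNE2*, which encodes cyclin E2, the activator of CDK2, had a log2 fold change of -1.24, while *CCND3*, which encodes cyclin D3, rose from 235.2 ± 3.94 to 307.4 ± 6.62 CPM (SD, n = 3 each), which gave a log2 fold change of 0.39 (edgeR adjusted p = 4.6e-07). Of 13 RB and E2F genes, 9 were lower and 3 higher, with a median of -0.78. *E2F1*, *E2F2*, *E2F8* and the RB relative *RBL1* had log2 fold changes of -1.29, -1.42, -1.58 and -1.36, while *RB1* itself was higher with 0.60 (edgeR adjusted p = 4.3e-08). Of 8 genes for the kinases and phosphatases that set CDK phosphorylation, 4 were lower and 1 higher, with a median of -0.34. This list is too short to set apart from the 35.3% lower over all tested genes. In it, *CDC25A*, the phosphatase that activates CDK2, was at -1.11 and *PKMYT1*, an inhibitory kinase of CDK1, at -1.57. Of 24 proliferation genes, 20 were lower and 3 higher, with a median of -0.57, and *CDCA3* moved furthest with -1.29.

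Genes that act on the CIP/KIP proteins were examined next. Of 14 genes for the ubiquitin ligases that mark p21, p27 or p57 for degradation, 10 were lower and 1 was higher, with a median log2 fold change of -0.39. *SKP2*, the subunit that recognizes p27, went from 87.6 ± 3.88 to 52.7 ± 5.97 CPM (SD, n = 3 each), which gave a log2 fold change of -0.73 (edgeR adjusted p = 6.3e-08). *CKS1B*, its cofactor, had -0.33 (adjusted p = 9.8e-05), and *DTL*, the subunit that recognizes p21 on PCNA, had -1.61 (edgeR adjusted p = 1.9e-13). Of 24 transcription factor genes linked to the CIP/KIP genes, 11 were higher and 5 lower, with a median of 0.09, and the number lower was 3 with limma on log2(TPM + 1). The share higher, 11 of 24, was not far from the 35.5% over all tested genes. The FOXO factors, known activators of *CDKN1B*, were higher, with log2 fold changes of 0.60 for *FOXO3* (adjusted p = 1e-06), 0.72 for *FOXO4* (adjusted p = 2.8e-06) and 1.94 for *FOXO1* (edgeR adjusted p = 3.9e-04), the last from 0.355 to 1.39 CPM. *TP73* had a log2 fold change of -1.26 (edgeR adjusted p = 6.6e-09).

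Of 21 genes for Polycomb and other repressors of the INK4 locus, 19 were tested, and 8 were higher and 8 lower, with a median log2 fold change of 0.09. These counts were close to the 35.5% higher and 35.3% lower over all tested genes, and with limma on log2(TPM + 1) 5 were higher and 3 lower. *TBX3*, a repressor of ARF, had 24.4 ± 2.39 CPM in Control and 61.3 ± 1.59 CPM with WNK463 (SD, n = 3 each), which gave a log2 fold change of 1.33 (edgeR adjusted p = 3.7e-11). *CBX2*, a Polycomb subunit, had -1.22 (adjusted p = 2e-10), *EZH2* had -0.60 (adjusted p = 1.9e-08) and *BMI1*, the best known repressor of the locus, had 0.59 (edgeR adjusted p = 1.2e-05).

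**Figure D4:**
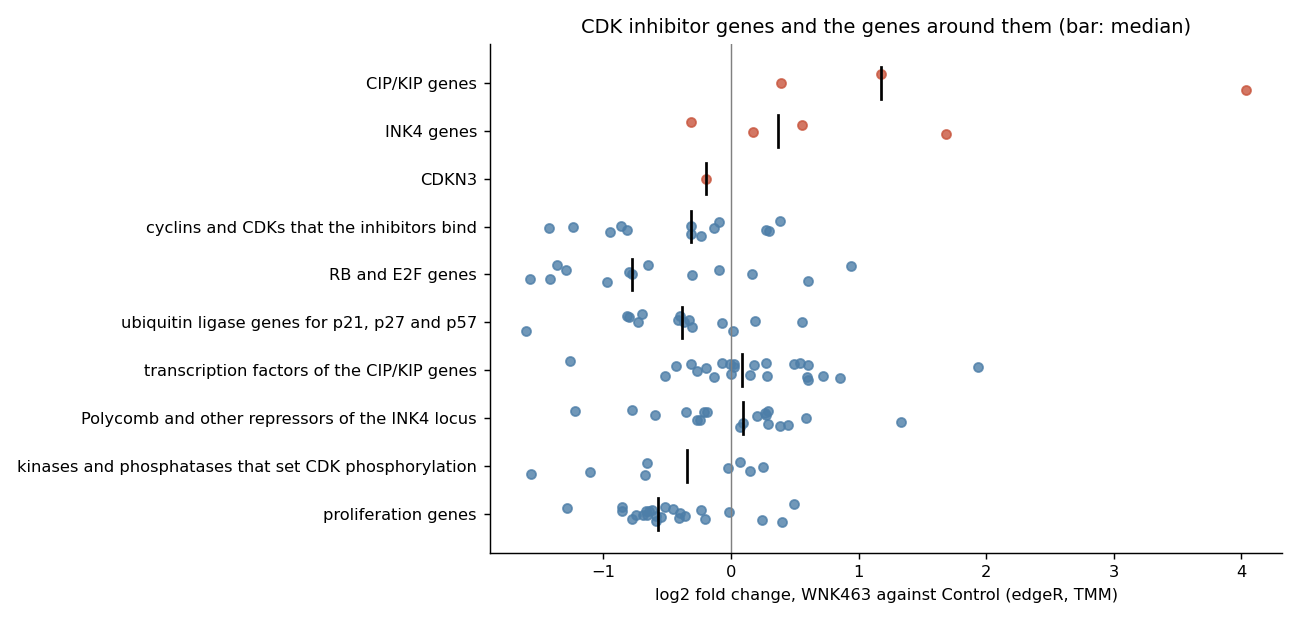
log2 fold change (WNK463 against Control, edgeR with TMM) of the CDK inhibitor genes (red) and of the tested genes in 7 lists around them (blue), 1 point per gene and with a bar at each median. The CIP/KIP median of 3 genes is 1.17, the value of *CDKN1B*, and counts *CDKN1C*, which was tested only through the WNK463 samples. The INK4 median is 0.37. The medians of the RB and E2F, proliferation, cyclin and CDK, ubiquitin ligase, and CDK phosphorylation lists are below 0.

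The KEGG cell cycle annotation in the deposited table holds 126 genes, of which 120 were tested, and 7 are CDK inhibitor genes. Over the set, 69 genes were lower and 25 higher, beside 35.3% lower and 35.5% higher among all tested genes. The median log2 fold change of the set was -0.31. With the limit of 1 on the fold change, 20 genes were lower and 4 were higher. The 4 were *CDKN1B*, *CDKN1C* and *CDKN2B* and the cyclin gene *CCNB3*, which stayed low with 0.835 ± 0.191 CPM in Control and 2.18 ± 0.740 CPM with WNK463 (SD, n = 3 each). Of these, *CDKN1C* was tested only through the WNK463 samples. Leaving out the CDK inhibitor genes, 20 genes were lower and 1 higher with this limit.

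The genes with the profile most like a CDK inhibitor gene were found by the root mean square distance between log2(CPM + 0.5) profiles over the 6 samples, each centred on its own mean. For *CDKN1B* these were *CAMLG*, *CYLD* and *NCEH1*, at distances of 0.032, 0.040 and 0.044 and with log2 fold changes of 1.23, 1.19 and 1.19. For *CDKN1C* they were *MERTK*, *REEP3* and *KLHL5*, at 0.087, 0.119 and 0.124 and with log2 fold changes of 2.915, 2.558 and 2.756. *CDKN1C* itself, tested only through the WNK463 samples, had a fitted value of 4.04. Its Control mean of 0.231 CPM is below the 0.5 added here, which makes its change in the profile smaller. For *CDKN2B* they were *ANO8*, *DNAJB4* and *NHLRC3*, at 0.055, 0.080 and 0.081 and with log2 fold changes of 1.373, 1.390 and 1.285, beside 1.69 for *CDKN2B*. The distances describe 6 samples in 2 groups and say nothing of shared function.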

How the data were processed

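RNA-seq of 3 Control and 3 WNK463 samples of MV4-11 cells was analysed, with groups taken from the sample titles. The authors deposited 1 table with estimated counts per gene and sample as whole numbers and TPM values. The submitters' processing notes name fastp, Bowtie2, HISAT2, StringTie, RSEM, DESeq2, edgeR and the build GRCh38, while their roles and versions are not given in the sources used here. Counts are taken as rounded estimates, since 62 values had 0 counts beside a TPM above 0. The columns with the authors' mean TPM, log2 ratio and p-value of their own comparison were deposited too and were not used.

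Counts were tested with edgeR 4.0.16 in R 4.3.3 (default filter on low counts, TMM factors, quasi-likelihood test without a block, Benjamini-Hochberg over 11973 genes). The standard error (SE) was obtained from the fold change and the F statistic, as |log2FC|/√F. Alternatives were total-count scaling, DESeq2 1.42.0, no filter, at least 10 counts in every sample, the replicate number as a block, limma 3.58.1 on log2(TPM + 1) or log2(TPM + 0.1) with at least 1 TPM in 3 samples or without this filter, and each sample left out. The procedure was tested on simulated data. The variation between replicates beyond counting noise, fitted over all genes as the square root of edgeR's common dispersion, was 5.21%. Replicate pairs differed by more than counting noise (chi-square per degree of freedom 2.64 to 7.30). Total counts per sample were 14915745 to 17411780, and *CDKN1C* and *CDKN2B* had the fewest reads. The genes and lists were chosen with earlier results of these data known. Genes named from the lists are those called with a log2 fold change of 1 or more in size, otherwise the gene that moved furthest, and direct partners or regulators, and 3 nearest profiles are named per gene called with that limit. Annotation is from GENCODE 29 and promoter windows are from RefSeq (GRCh38.p14). *CDKN2B-AS1* was not analysed here, and some genes of the lists are not reported here.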

Additional observations from a re-analysis of the deposited data

How the results depend on the processing

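Over 14 alternatives, *CDKN1A*, *CDKN1B*, *CDKN2B* and *CDKN2D* kept their direction and their call in each, and *CDKN1C* in the 13 that tested it, since with at least 10 counts in every sample it was left out. Of 111 combinations of a gene and an alternative, 98 kept direction and call, 10 lost the call (4 for *CDKN2A*, 6 for *CDKN2C*), 3 gained it (*CDKN3*) and 0 reversed. The number of CDK inhibitor genes called lower, 1 with TMM, was 0 with total counts and with each limma setting and 2 without a filter, and 1 to 2 with each sample left out. The causes were not tested. For the lists, 225 of 252 counts stayed within 1.5 times. With limma on log2(TPM + 1) and log2(TPM + 0.1), 4 cyclin and CDK genes were lower, 5 repressors of the INK4 locus were higher and 3 lower, and with these and without the TPM filter 3 transcription factor genes were lower, 3 ligase genes higher and 2 CDK phosphorylation genes higher, with 3 repressors lower also without the filter. Total counts gave 3 ligase genes higher, 4 repressors lower and 2 CDK phosphorylation genes higher, DESeq2 gave 0 of the last, and at least 10 counts in every sample gave 2 ligase genes higher. Each sample left out gave 1 to 2 ligase genes and 0 to 1 CDK phosphorylation genes higher. Replicate numbers did not pair the samples (correlations of same-numbered deviations 0.01, 0.02 and -0.06 over 11973 genes), and with the replicate number as a block 6 CDK inhibitor genes were higher and 1 lower, as without it. The 3 and 5 reads of *CDKN1C* in Control limit the precision of its fold change.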

Other observations

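The deposited table annotates 12 genes with inhibitor activity toward cyclin-dependent kinases, of which 7 are the CIP/KIP and INK4 genes. Genes outside these families were looked up after the results above were known. *HEXIM1* and *HEXIM2*, which hold the transcription kinase CDK9 inactive on the 7SK RNA, were both higher. *HEXIM1* had 42.2, 52.9 and 45.0 CPM in Control and 88.0, 85.8 and 88.5 CPM with WNK463, a log2 fold change of 0.91 (SE 0.07, edgeR adjusted p = 2.9e-09). *HEXIM2* went from 2.82 ± 0.584 to 8.87 ± 0.384 CPM (SD, n = 3 each), which gave a log2 fold change of 1.64 (edgeR adjusted p = 1.9e-07). *KAT2B* had 0.48 (edgeR adjusted p = 8.5e-04), and *INCA1* was below the filter with 1 to 2 reads in each Control sample and 5 to 11 with WNK463. *CDKN2AIP* and *CDKN2AIPNL*, whose names derive from *CDKN2A* but which are no CDK inhibitors, had 0.15 and -0.08 and did not pass (adjusted p = 0.052 and 0.30 from edgeR).

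The quotient of count and TPM in a library gives the effective length that was assigned to a gene, relative to the other genes. Between WNK463 and Control this length changed by a ratio of 0.976 for *CDKN1A*, 0.974 for *CDKN1B*, 0.946 for *CDKN2A*, 0.910 for *CDKN2C*, 0.964 for *CDKN2D* and 0.987 for *CDKN3*. The central 95% of 9170 genes with at least 100 counts in every sample lay between 0.890 and 1.18, so each of these 6 genes was within that range.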
